A study of Mus musculus with 16 samples.

Results

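The 8 genes described here were Plekhg2, Rai14, Fhl3, Pear1, Tmem2, 1500015O10Rik, Palm3 and Pgbd5, out of 24411 genes in the tables of counts and of TPM (read level scaled by gene length and library). They were chosen by name, from the genes whose reads differed most between SCI + Atorvastatin and SCI + Vehicle mice in these same libraries, so their difference between those groups is given as a description and carries no test. The filter on low values asked for a group mean over 1 TPM in any of the groups and left 15947 genes, all 8 among them. Fhl3 passed through the SCI mice alone, and the other 7 passed in every group.

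The tissue was a 5 mm piece of spinal cord from female C57BL/6J mice. In the spinal cord injury (SCI) groups the cord had been compressed at 12 weeks of age from the sides to a spacer width of 0.25 mm at T8-9. From 2 weeks after injury and for 4 weeks, 7 mice received atorvastatin daily at 10 mg/kg (SCI + Atorvastatin) and 7 received its vehicle alone, saline (61%) with 35% polyethylene glycol and 2% each of DMSO and Tween (SCI + Vehicle), with tissue taken 6 weeks after injury. The Uninjured Control group was 2 mice with no injury, vehicle or drug, and each library came from 1 mouse. By the study's methods the tissue was taken at 18 weeks of age in the SCI groups and at 14 weeks in the controls, so age and injury cannot be told apart in any comparison with controls. Each 5 mm piece held every cell type at the lesion, so a lower level could come from fewer cells of a type or from less RNA per cell, and these cannot be told apart here.

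Statins block the enzyme that makes mevalonate, and mevalonate is the source of the isoprenoid lipids that anchor many signaling proteins in membranes. Some of those proteins act on actin assembly, and actin in turn controls transcription through serum response factor. After SCI, fibroblasts of the meninges and vessels enter the lesion and lay down collagens and decorin, so genes of the actin cytoskeleton are read in a tissue whose cell makeup has changed. The 8 genes cover several of these layers. Plekhg2 is a guanine nucleotide exchange factor, Rai14 an ankyrin-repeat protein of actin bundles, and Fhl3 a LIM domain protein that binds actin and transcription factors. Pear1 is a membrane receptor with EGF-like repeats, Tmem2 (now Cemip2) a membrane protein that breaks down hyaluronan, 1500015O10Rik (now Ecrg4) encodes the precursor of the secreted peptide augurin, and Palm3 is a paralemmin, a family held at the inner face of the plasma membrane by lipid anchors. Pgbd5, a domesticated piggyBac transposase, is a nuclear protein, so the description of the set as cytoskeletal and membrane genes does not cover it.

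The genes lie on 7 chromosomes of GRCm38 by the GENCODE annotation, and all are annotated as protein coding. Plekhg2 spans chr7:28359604-28372599 on the minus strand, Rai14 chr15:10568969-10714624 (minus), Fhl3 chr4:124700701-124708611 (plus), Pear1 chr3:87747890-87824306 (minus) and Tmem2 chr19:21778342-21858360 (plus). 1500015O10Rik spans chr1:43730602-43742578 (plus), Palm3 chr8:84021471-84030295 (plus) and Pgbd5 chr8:124369049-124439658 (minus). Exons of Pear1 shared 321 of 6781 bases with Lrrc71 on the same strand, so reads there could have been counted for either gene. Rai14 shared 89 exon bases and Tmem2 97 with antisense genes, and Palm3 shared 2 with Il27ra.

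The sequence before the start of 4 of these genes is shown because it lies outside or at the edge of the annotated gene body and because these genes include those with the largest higher and lower differences in the atorvastatin group. Each is the 250 bases before the RefSeq start on GRCm38.p6, 5′ to 3′ on the strand of the gene. Capitals mark GC boxes (GGGCGG) and the TEAD motif (GGAATG) on either strand, and 2 of the 5 GC boxes of Fhl3 overlap by a base.
Plekhg2 (chr7:28372663-28372912, minus): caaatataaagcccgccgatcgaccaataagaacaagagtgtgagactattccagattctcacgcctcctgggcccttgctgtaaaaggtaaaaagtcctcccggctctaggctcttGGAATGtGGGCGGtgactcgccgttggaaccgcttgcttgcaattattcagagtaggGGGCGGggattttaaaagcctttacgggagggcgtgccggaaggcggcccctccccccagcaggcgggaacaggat
Fhl3 (chr4:124700449-124700698, plus): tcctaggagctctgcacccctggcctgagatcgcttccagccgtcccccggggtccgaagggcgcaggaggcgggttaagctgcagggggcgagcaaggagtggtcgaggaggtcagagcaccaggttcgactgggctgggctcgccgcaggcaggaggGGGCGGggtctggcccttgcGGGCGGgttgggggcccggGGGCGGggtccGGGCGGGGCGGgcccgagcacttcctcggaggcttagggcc
1500015O10Rik (chr1:43730352-43730601, plus): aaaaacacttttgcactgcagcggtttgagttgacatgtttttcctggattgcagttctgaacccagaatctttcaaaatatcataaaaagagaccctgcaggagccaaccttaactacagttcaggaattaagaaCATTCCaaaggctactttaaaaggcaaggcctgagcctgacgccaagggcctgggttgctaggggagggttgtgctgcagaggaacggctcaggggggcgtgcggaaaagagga
Palm3 (chr8:84021224-84021473, plus): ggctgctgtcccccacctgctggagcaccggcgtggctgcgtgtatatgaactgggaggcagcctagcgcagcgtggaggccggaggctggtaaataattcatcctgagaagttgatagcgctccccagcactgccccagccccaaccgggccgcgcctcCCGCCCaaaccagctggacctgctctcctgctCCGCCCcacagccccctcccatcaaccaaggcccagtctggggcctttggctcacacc
Windows were found for 7 of the 8 genes, with 2 starts for Rai14, and Tmem2 was not among them. The GC box occurred in the windows of Plekhg2, Fhl3, Pear1, Palm3 and Pgbd5, and in 32.7% of all 32851 windows of this length. The TEAD motif occurred in those of Plekhg2, 1500015O10Rik and the first Rai14 start, and in 12.6% of all windows. The CArG box, the site of serum response factor, was in 1.47% of all windows and in none of those of these genes, which says only that its letters are not there.

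Libraries held 14823292 to 25579826 reads assigned to genes. At that depth 3 counts, taken as the floor, corresponded to 0.117 to 0.205 CPM (counts scaled to a common library size, with the trimmed mean of M-values, TMM). Summed markers of neurons (5497 to 11274 CPM), oligodendrocytes and astrocytes were high in every library. The 2 control libraries stood apart from the rest: 21.8% and 24.1% of the genes that passed the TPM filter had no reads in them, against 2.57% to 5.76% in the SCI mice. Summed markers of liver were 3920 and 615 CPM in the controls and at most 5.19 CPM in the SCI mice, and every comparison with controls below rests on these libraries. Within the SCI mice, fibroblast markers summed to 202 and 153 CPM in SCI + Vehicle mice 4 and 7, against 536 to 1148 in the other 5 vehicle mice and 709 to 1998 in the atorvastatin mice. Skeletal muscle markers reached 2898 CPM in atorvastatin mouse 2 and 546 in vehicle mouse 3.

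**Figure D1:**
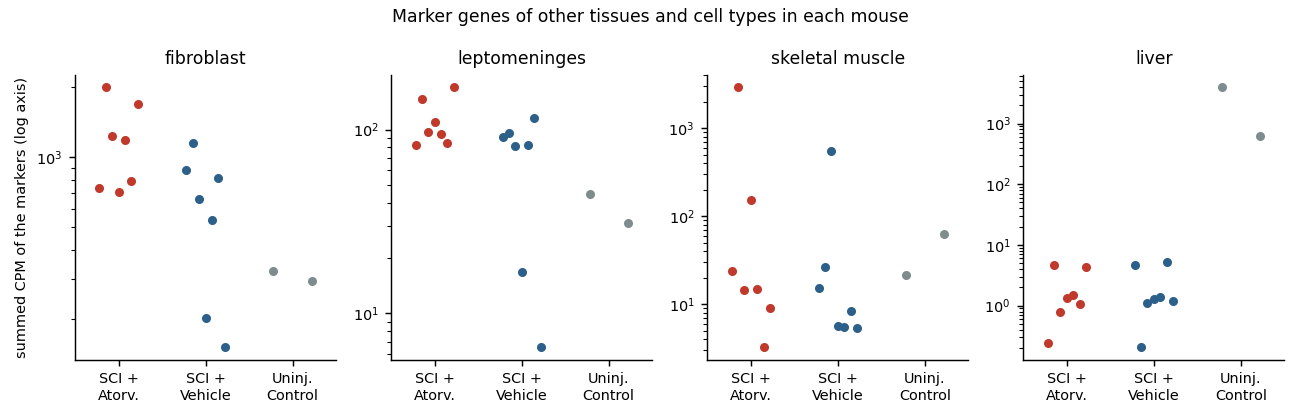
Summed TMM-normalized CPM of marker genes (vertical axis, logarithmic) of fibroblasts, leptomeninges, skeletal muscle and liver, with 1 point for each mouse. Vehicle mice 4 and 7 lie lowest for fibroblasts (202 and 153 CPM), and both controls lie far above all SCI mice for liver (3920 and 615 CPM).

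Of the 8 genes, 6 were higher and 2 lower in SCI + Atorvastatin than in SCI + Vehicle mice. The largest differences were those of Fhl3 and 1500015O10Rik, each more than doubled on average, and the smallest was that of Pgbd5. These differences are what the genes were chosen for. In the fit over all genes they held ranks 1 (Plekhg2), 2 (Pear1), 6 (Rai14), 8 (Tmem2), 11 (1500015O10Rik), 17 (Fhl3), 25 (Pgbd5) and 32 (Palm3) of 15947. The limit used, an unadjusted p under 0.001 with a fold change beyond 1.25 either way, was passed by 0.107% of the genes, the first 6 of these among them. Fhl3 lay just inside that limit and Pgbd5 just outside it. After Benjamini-Hochberg adjustment in edgeR's quasi-likelihood test no gene of the whole table reached 0.05, the lowest value being 0.674, whereas 1132 did without adjustment. DESeq2 placed 37 genes past the unadjusted limit, where edgeR placed 17.

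Plekhg2, the exchange factor, ran from 16.7 CPM through a median of 26.2 to 30.7 CPM in the atorvastatin mice. In the vehicle mice it ran from 10.5 through 13.2 to 20.4 CPM, and the controls held 2.82 and 8.62 CPM. The means were 24.6 ± 4.60 CPM (SD, n = 7) and 14.3 ± 3.83 CPM (SD, n = 7), a log2 difference of 0.78. The groups overlapped through 1 mouse, since 6 of 7 atorvastatin mice lay above the highest vehicle mouse, and both controls lay below every SCI mouse.

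Rai14, the actin bundle protein, ran from 48.5 through 54.7 to 70.3 CPM with atorvastatin and from 28.4 through 40.5 to 50.9 CPM with vehicle. Its means were 57.6 ± 8.92 and 40.8 ± 7.73 CPM (SD, n = 7 each), a log2 difference of 0.50. The highest value was in atorvastatin mouse 2 and the lowest in vehicle mouse 7, and 5 of 7 atorvastatin mice lay above all vehicle mice. Control 1 held 23.7 CPM (472 counts), and control 2 had 0 counts, where the floor allows up to 0.136 CPM.

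Fhl3, the LIM protein, was the most weakly read of the 8 in the vehicle mice, with 32 to 239 counts in a SCI mouse. It ran from 2.60 through 6.11 to 10.8 CPM with atorvastatin and from 1.60 through 2.86 to 3.66 CPM with vehicle, a log2 difference of 1.15. The means were 6.23 ± 2.46 and 2.80 ± 0.746 CPM (SD, n = 7 each). Atorvastatin mouse 4 lay among the vehicle mice and the other 6 lay above them all. The highest mouse, atorvastatin mouse 2, was also the one with the most skeletal muscle reads, a tissue in which Fhl3 is abundant, and without that mouse the log2 difference was 0.96. Across the atorvastatin mice the correlation of Fhl3 with the muscle score was r = 0.28 (exact permutation p = 0.455, adjusted p = 0.831, rho = 0.21 with exact p = 0.662 and adjusted p = 0.897), and r was 0.43 without mice 2 and 4, the farthest from the median score. Both controls had 0 Fhl3 counts.

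Pear1, the EGF-repeat receptor, ran from 10.1 through 14.4 to 23.6 CPM with atorvastatin and from 5.55 through 7.58 to 11.7 CPM with vehicle. The log2 difference was 0.87 between means of 15.8 ± 4.81 and 8.63 ± 2.29 CPM (SD, n = 7 each). Atorvastatin mouse 1 (10.1 CPM) and mouse 2 (11.6 CPM) lay within the vehicle range. Of the controls, 1 (22.0 CPM) lay near the highest SCI mouse and the other (5.04 CPM) below every SCI mouse.

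Tmem2, the hyaluronan-degrading membrane protein, ran from 27.6 through 30.6 to 36.7 CPM with atorvastatin and from 16.1 through 21.9 to 28.9 CPM with vehicle, a log2 difference of 0.52. The means were 31.5 ± 3.30 and 21.9 ± 4.60 CPM (SD, n = 7 each). Atorvastatin mice 2 and 5 lay within the vehicle range, and both controls (12.6 and 8.08 CPM) lay below every SCI mouse. In control 1 the TPM value was 0.25 for 250 counts, whereas control 2 had a TPM of 2.96 for 178 counts, so the 2 tables rank these mice in opposite order.

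1500015O10Rik, which encodes the augurin precursor, varied most within a group. It ran from 5.17 through 9.76 to 18.2 CPM with atorvastatin, with a coefficient of variation of 46.3%, and from 2.25 through 5.07 to 6.61 CPM with vehicle. The log2 difference was 1.13 between means of 10.8 ± 4.99 and 4.89 ± 1.53 CPM (SD, n = 7 each). Atorvastatin mice 1 and 6 lay within the vehicle range, and atorvastatin mice 2 and 7 stood highest. The controls held 13.8 CPM (274 counts) and 0 counts.

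Palm3, the paralemmin, was lower with atorvastatin, from 5.17 through 5.84 to 6.80 CPM, against 6.28 through 8.96 to 12.3 CPM with vehicle. The means were 5.89 ± 0.561 and 9.45 ± 2.34 CPM (SD, n = 7 each), a log2 difference of -0.68. The atorvastatin mice varied little, with a coefficient of variation of 9.53% against 24.8% with vehicle, and 5 of 7 lay below the lowest vehicle mouse. Controls 1 and 2 held 13.7 and 11.3 CPM but 7.08 and 12.57 TPM, so the 2 measures rank them in opposite order. On the TPM scale control 1 lay below the vehicle mean of 8.43.

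Pgbd5, the transposase-derived gene, best known from neurons, ran from 34.5 through 40.2 to 47.9 CPM with atorvastatin and from 39.9 through 55.3 to 60.2 CPM with vehicle. Its log2 difference was -0.36 between means of 40.8 ± 4.07 and 52.6 ± 7.39 CPM (SD, n = 7 each). The groups overlapped through vehicle mice 1 (39.9 CPM) and 3 (47.4 CPM), and the other vehicle mice lay above every atorvastatin mouse. All 7 atorvastatin mice lay below the vehicle median, and 2 lay below the lowest vehicle mouse. All 8 neuron markers also had a lower mean with atorvastatin, 0 of them called by edgeR and 0 at an unadjusted p under 0.05, with a median log2 difference of -0.16 against -0.003 over all genes. Their sums were 5497 to 6926 CPM with atorvastatin and 5790 to 9311 CPM with vehicle, and their part in the value of Pgbd5 was not tested. The control values of 116.9 and 31.1 CPM lay on both sides of all SCI mice.

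For none of the 8 genes were the groups of 7 mice fully apart, and over all genes tested 0.0878% were. Per length, on the TPM scale, Pgbd5 had the highest level in vehicle mice (46.6 ± 7.38 TPM), followed by Rai14 (21.9 ± 5.27) and 1500015O10Rik (17.3 ± 6.27), whose ranges overlapped. Palm3 (8.43 ± 2.51), Tmem2 (7.19 ± 2.10) and Plekhg2 (6.54 ± 1.93) came next and differed by less than their SDs, and Pear1 (3.69 ± 1.01) and Fhl3 (3.18 ± 1.23) were lowest and likewise overlapped (SD, n = 7). In the atorvastatin mice 1500015O10Rik (37.4 ± 15.1 TPM) was level with Pgbd5 (35.6 ± 2.73 TPM) within its SD.

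**Figure D2:**
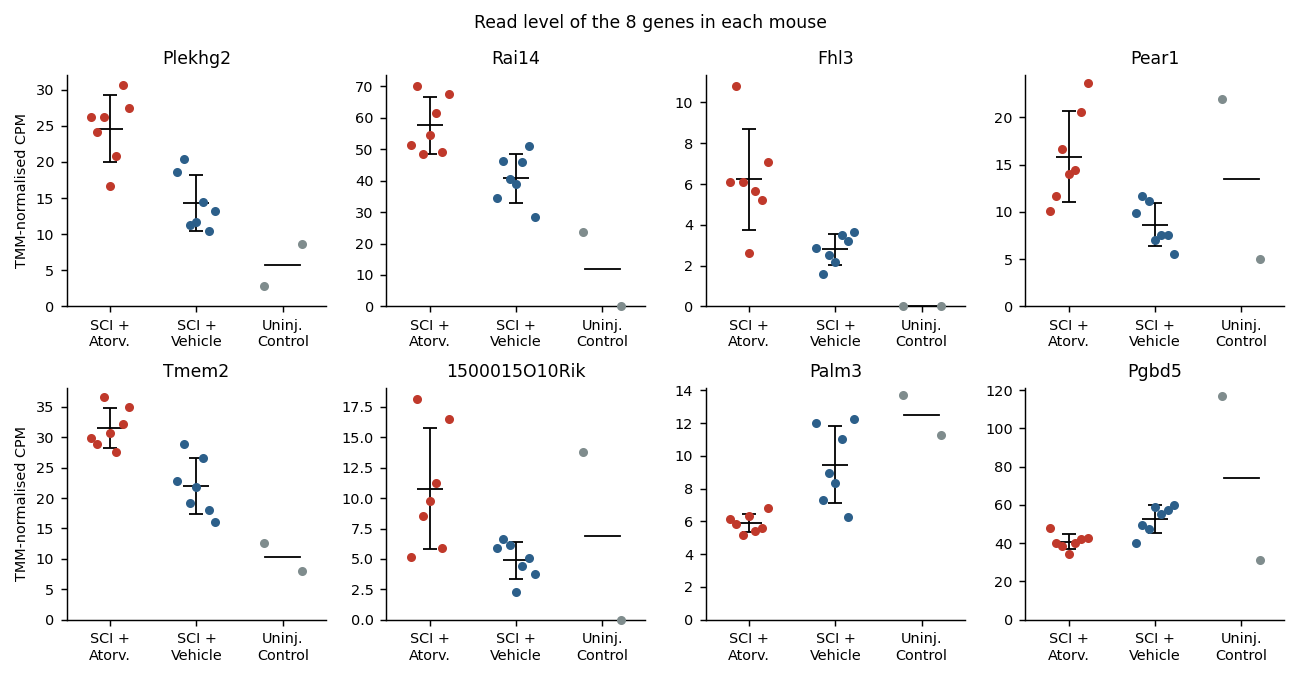
TMM-normalized CPM (vertical axis, from 0) of each gene in each mouse, with 1 point for each mouse; black bars show mean ± SD of the 7 mice in each SCI group, and a line alone the mean of the 2 controls. Plekhg2 lies between 16.7 and 30.7 CPM with atorvastatin and between 10.5 and 20.4 CPM with vehicle, and the 2 controls lie far apart for Rai14, Pear1, 1500015O10Rik and Pgbd5.

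The comparison of both SCI groups with the controls asked how the same genes stood after injury. It averaged the SCI groups and so did not use the difference by which the genes were chosen. The spread among the SCI mice entered both comparisons, so the SE and p-values here are not wholly free of that choice. Plekhg2, Rai14 and Tmem2 were higher in the SCI mice, Palm3 and Pgbd5 were lower, Fhl3 was read in the SCI mice alone, and Pear1 and 1500015O10Rik did not pass the test. Plekhg2 rose by a log2 fold change of 1.71 ± 0.38 (SE, adjusted p = 0.00142), Tmem2 by 1.35 ± 0.24 (adjusted p = 0.000224) and Rai14 by 2.03 ± 0.80 (adjusted p = 0.0460) in edgeR's quasi-likelihood test. Fhl3 had no reads in either control and entered the fit through the SCI mice alone, so no test of it is given. If those 0 values are taken as levels below 3 counts, the Fhl3 mean was at least 43.4-fold above that floor with atorvastatin. With vehicle it was at least 19.5-fold above it. Control 2 also had 0 Rai14 counts where control 1 had 472, so a 0 in these libraries gives no firm bound. Palm3 fell by 0.75 ± 0.28 (SE, adjusted p = 0.0347) and Pgbd5 fell by 0.67 ± 0.26 (adjusted p = 0.0424) on the log2 scale. The values of Pear1 (-0.21 ± 0.41, adjusted p = 0.703) and 1500015O10Rik (0.08 ± 0.88, adjusted p = 0.953) lay within their SE.

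Of the 7 genes that passed the filter in every group, 3 rose where 29.0% of all genes did and 2 fell where 16.4% did, and with so few genes no excess was read from these shares. The median of all genes lay at 0.21 on this log2 scale. Which control was used decided several values. Against control 2 alone, Pgbd5 was higher in SCI mice (0.58) and against control 1 alone lower (-1.34). Pear1 likewise lay at 1.21 against control 2 and at -0.91 against control 1. Palm3 lay at -0.60 against control 2 alone, and 1500015O10Rik lay at -0.92 against control 1. A fit with 1 control holds no measure of the spread of controls, so only the sizes are given. With voom and quality weights for each group, which let the controls vary more than the SCI mice, none of the 8 passed (adjusted p of 0.555 to 0.935) and 179 genes in all did, while all 15947 genes gave 7245 calls in edgeR. Rai14 lay at 1.03 against control 1 alone, below its value with both. Control 2 had no Rai14 reads, so the value of 2.03 depends on that library and is no measure of size. Plekhg2 lay at 1.12 against control 2 alone and 2.73 against control 1 alone, and Tmem2 at 1.70 and 1.06.

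**Figure D3:**
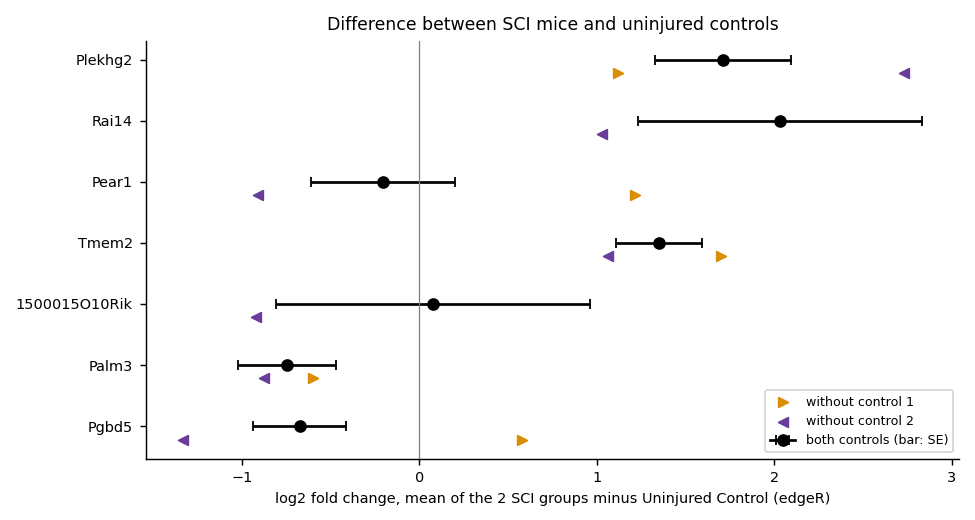
Log2 fold change (horizontal axis) of the mean of both SCI groups minus Uninjured Control for 7 genes, with the SE, and the same value with control 1 or control 2 left out; Fhl3, with no control reads, is not drawn, nor is a value where the remaining control had no reads. Plekhg2 and Tmem2 keep their side of 0, while Pear1 and Pgbd5 change side with the control used.

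Set against the controls separately, the SCI groups shared those controls, so their values are given side by side. Each comparison also used 1 of the groups the genes were chosen on. A gene called with atorvastatin and not with vehicle, or the reverse, therefore follows in part from that choice and is no test of treatment. With vehicle, and Fhl3 left aside, 1 of 7 was called higher (20.1% of all genes), namely Tmem2 (1.07 ± 0.33 SE, adjusted p = 0.0326), and 0 of 7 lower (9.68% of all genes) by edgeR, 0 by voom with group weights as well. The 2 genes that lay lower in the 14 SCI mice had log2 values of -0.42 (Palm3, unadjusted p = 0.302) and -0.51 (Pgbd5, unadjusted p = 0.182) in that comparison by edgeR. With atorvastatin, 2 of 7 were called higher (25.1% of all genes), namely Plekhg2 (2.11 ± 0.43 SE, adjusted p = 0.00334) and Tmem2 (1.62 ± 0.24, adjusted p = 0.000481), and Palm3 alone was lower (-1.08 ± 0.31, adjusted p = 0.0180), where 14.2% of all genes were. Plekhg2 with vehicle lay at 1.31 ± 0.50 (edgeR, adjusted p = 0.0722), and Rai14 at 1.77 ± 1.12 with vehicle and 2.29 ± 1.12 with atorvastatin. In controls, vehicle and atorvastatin mice the means were 12.5, 9.45 and 5.89 CPM for Palm3. For Pgbd5 they were 74.0, 52.6 and 40.8 CPM in the same order. The step from vehicle to atorvastatin is what these genes were chosen for. That from controls to vehicle did not pass for either gene, and the spread of the controls for Pgbd5 covers both SCI groups.

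The members were next set against Dcn (decorin) and Col3a1 (collagen type III), both made by fibroblasts, within each SCI group, a measure the choice of genes did not use. Dcn ran from 86.3 to 270.7 CPM with atorvastatin. With vehicle it ran from 75.5 to 168.9 CPM in 5 mice and was 12.5 and 8.20 CPM in mice 4 and 7, which thus form a cluster of their own. All 9 fibroblast markers had a higher mean with atorvastatin, 8 of them at an unadjusted p under 0.05 and none called, with a median log2 difference of 0.88, against -0.003 over all genes. The part of this difference in the values of the 8 genes was not tested beyond the values given here.

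1500015O10Rik followed the fibroblast genes most closely. In the atorvastatin mice its r with Dcn was 0.93 (exact permutation p = 0.00198, adjusted p = 0.0635 over 32 relations) and its rho 0.93 (exact p = 0.00675, adjusted p = 0.108). Without mice 1 and 2, the farthest from the median of Dcn, r was 0.85. With Col3a1 its r was 0.84 (exact permutation p = 0.0224, adjusted p = 0.143) and its rho 0.68 (exact p = 0.110, adjusted p = 0.350), and r was 0.96 without mice 4 and 7. In the vehicle mice r was 0.84 with Dcn (exact permutation p = 0.0173, adjusted p = 0.143, rho = 0.86 with exact p = 0.0238 and adjusted p = 0.182). It was 0.81 with Col3a1 there (exact permutation p = 0.0300, adjusted p = 0.160, rho = 0.79 with exact p = 0.0480 and adjusted p = 0.220), and over the 5 vehicle mice other than 4 and 7 r was 0.72 and 0.60, too few mice to test.

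Rai14 had an r of 0.77 with Dcn in the atorvastatin mice (exact permutation p = 0.0440, adjusted p = 0.201, rho = 0.71 with exact p = 0.0881 and adjusted p = 0.313), and 0.74 without mice 1 and 2. With Col3a1 its r there was 0.75 (exact permutation p = 0.0687, adjusted p = 0.204, rho = 0.46 with exact p = 0.302 and adjusted p = 0.605). In the vehicle mice its r with Dcn was 0.56 over all 7 and -0.67 over the 5 without mice 4 and 7, so the positive value rested on those 2 mice. For Pear1 the larger value was in the vehicle mice, with r of 0.83 with Dcn in the vehicle mice (exact permutation p = 0.0143, adjusted p = 0.143, rho = 0.89 with exact p = 0.0123 and adjusted p = 0.131) and 0.18 in the atorvastatin mice (exact permutation p = 0.706, adjusted p = 0.807). Without vehicle mice 4 and 7 the value for Pear1 was 0.63, and the difference between the groups was not tested.

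Pgbd5 ran against the fibroblast genes in the vehicle mice, with r of -0.76 with Dcn (exact permutation p = 0.0524, adjusted p = 0.204) and rho of -0.93 (exact p = 0.00675, adjusted p = 0.108), and r was -0.86 without mice 4 and 7. In the atorvastatin mice its r with Dcn was -0.44 and with Col3a1 0.03. Plekhg2, Tmem2 and Palm3 lay between -0.19 and 0.25 in the atorvastatin mice for both genes. In the vehicle mice r was 0.45 with Dcn and 0.38 with Col3a1 for Plekhg2, 0.53 and 0.48 for Tmem2, and -0.23 and -0.27 for Palm3, and without mice 4 and 7 the value of Plekhg2 with Dcn was 0.79. Fhl3 lay at 0.45 with Dcn and 0.70 with Col3a1 in the atorvastatin mice but at -0.27 and -0.23 in the vehicle mice. Over all 32 relations 22 were positive, 7 had an unadjusted exact p under 0.05, and 0 passed after Benjamini-Hochberg adjustment by r or by rho. With 7 mice in a group only a very strong relation could pass.

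**Figure D4:**
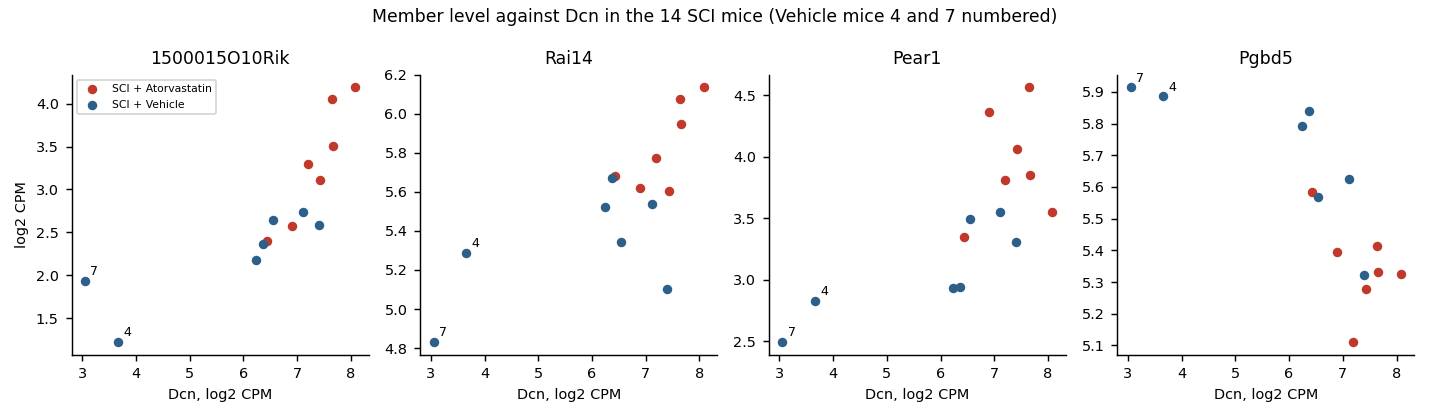
Log2 CPM of 4 genes (vertical axis) against log2 CPM of Dcn (horizontal axis) in the 14 SCI mice, colored by group, with vehicle mice 4 and 7 numbered. Those 2 mice lie apart at low Dcn (12.5 and 8.20 CPM); 1500015O10Rik rises with Dcn within the atorvastatin mice (r = 0.93), and Pgbd5 runs against Dcn in the vehicle mice (r = -0.76).

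With the mean fibroblast score as a term in the fit, the log2 difference of atorvastatin against vehicle mice kept its sign for all 8 genes. The genes were chosen on this difference, so a kept sign was nearly given in advance and is no test. The difference went from 1.13 to 0.52 for 1500015O10Rik, from 0.50 to 0.29 for Rai14, from 0.87 to 0.58 for Pear1 and from -0.36 to -0.22 for Pgbd5. The other 4 moved less, to 1.10 for Fhl3, 0.64 for Plekhg2, 0.39 for Tmem2 and -0.59 for Palm3. Without vehicle mice 4 and 7 the differences were 0.93 for 1500015O10Rik, 0.40 for Rai14, 0.72 for Pear1, -0.29 for Pgbd5, 1.18 for Fhl3, 0.70 for Plekhg2, 0.45 for Tmem2 and -0.63 for Palm3. The number of genes past the unadjusted limit over the whole table fell from 17 to 3 without them.

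**Figure D5:**
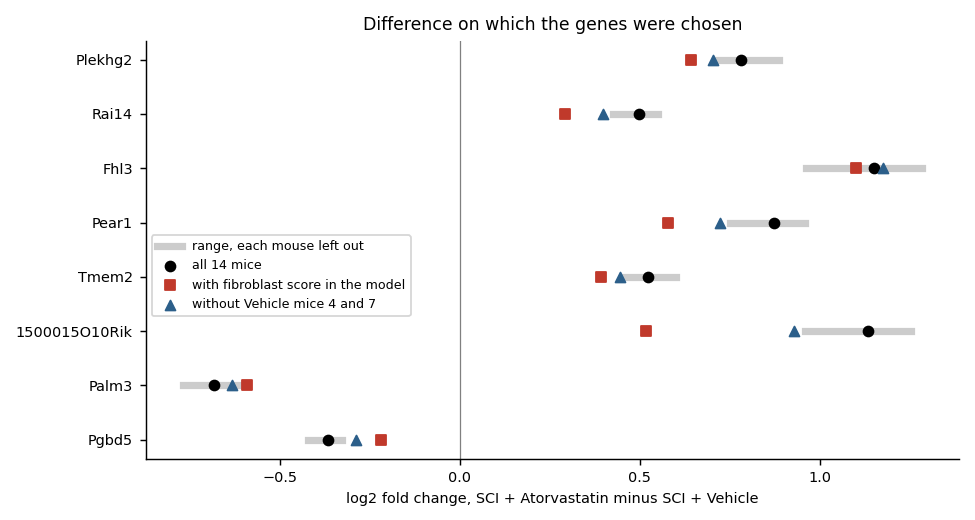
Log2 fold change of SCI + Atorvastatin minus SCI + Vehicle (horizontal axis) for each gene with all 14 mice, with a fibroblast score in the model, without vehicle mice 4 and 7, and as the range when each mouse is left out in turn. This is the difference the genes were chosen on and no test is drawn; the value of 1500015O10Rik moves most with the fibroblast score, from 1.13 to 0.52.

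Against 15 cell type scores, 28 of 240 relations had an unadjusted exact p under 0.05 and 1 passed the adjustment. That was Rai14 with oligodendrocyte precursor markers in the vehicle mice, with r of 0.99 (exact permutation p = 0.000198, the smallest that 7 mice can give, adjusted p = 0.0476) and rho of 1.00 (exact p = 0.000397, adjusted p = 0.0476), and r was 1.00 without mice 6 and 7. In the atorvastatin mice the same r was 0.09 (exact permutation p = 0.850, adjusted p = 0.944), and on the log2(TPM + 1) scale the vehicle value was 0.93 (exact permutation p = 0.00238) and did not pass. The strongest relation with atorvastatin was that of 1500015O10Rik with ependyma markers, ciliated cells lining the central canal (r = 0.98, exact permutation p = 0.000595, adjusted p = 0.0714, rho = 1.00 with exact p = 0.000397 and adjusted p = 0.0476), and r was 0.97 without mice 2 and 7. In the vehicle mice that r was -0.57 (exact permutation p = 0.187, adjusted p = 0.643). The ependyma score weighted its 7 markers equally on the log scale. With atorvastatin Dynlrb2, Pifo and Tmem212 averaged only 0.90, 0.75 and 1.04 CPM, and 1 marker had no reads in mice 1 and 3. The ependyma values thus rest in part on barely read genes. 1500015O10Rik also went with leptomeninges markers in both groups, at 0.88 with atorvastatin (exact permutation p = 0.0131, adjusted p = 0.185) and 0.76 with vehicle (exact permutation p = 0.0581, adjusted p = 0.431). Without the 2 mice farthest from the median score these values were 0.64 and 0.11. The r of 1500015O10Rik was higher with the fibroblast score, at 0.91 with atorvastatin (exact permutation p = 0.00675, adjusted p = 0.173). With vehicle it was 0.87 (exact permutation p = 0.00992, adjusted p = 0.173). With microglia or macrophage markers its r was 0.32 with atorvastatin and 0.94 with vehicle, and with neuron markers -0.89 and -0.41. With liver markers, which summed to at most 4.67 CPM in the atorvastatin mice, its r was 0.90 there and 0.04 with vehicle. An r near that of the fibroblast score thus also arose with barely read markers. In the vehicle mice Pear1 had an r of 0.89 with choroid plexus, 0.86 with Schwann cell and 0.85 with fibroblast markers. Pgbd5 had -0.88 with smooth muscle or pericyte and -0.74 with fibroblast markers there. None of these values passed the adjustment.

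The members did not move as a unit from mouse to mouse. In the atorvastatin mice Rai14 and 1500015O10Rik had an r of 0.91, Plekhg2 and Pgbd5 0.71, and Pear1 and Tmem2 0.65. In the vehicle mice the first of these was 0.28 and the second -0.58, while Pear1 and Tmem2 stood at 0.55, Plekhg2 and Tmem2 at 0.70, Rai14 and Palm3 at -0.77 and Pear1 and Pgbd5 at -0.77. These values are descriptive, since all genes share the same 7 libraries in a group.

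Over the 14 SCI mice, after removing group means, the genes most like each member were found among all other genes tested. For Rai14 they were Nbl1 (r = 0.95), Pkd2 (0.91) and Gm20257 (0.88). For Pgbd5 they were Atg2a (0.93), Agap3 (0.92) and Adgrb2 (0.91), and for 1500015O10Rik Epha3 (0.91), Fstl1 (0.88) and Mrps30 (0.87). Fhl3 was most like Kcna5 (0.90), Plekhg2 like Loxl4 (0.87), Pear1 like Aim2 (0.88), Tmem2 like Slc38a6 (0.87) and Palm3 like Ggact (0.89). These values were picked as the highest among all genes tested over only 14 mice. They are high in part through that choice and carry no test. On the same measure Dcn ranked 227 for 1500015O10Rik (r = 0.72), 648 for Pear1 and 877 for Rai14, and 15585, near the opposite end, for Pgbd5 (r = -0.68).

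The closest relatives of the members were read alongside them. In the Plekhg family, 5 of 6 genes were tested, and besides Plekhg2 Plekhg5 (0.88 ± 0.23 SE, adjusted p = 0.00460) was higher in SCI mice than controls by edgeR. Plekhg4 had 0 control counts, and Plekhg1 lay at -0.15 and Plekhg3 at -0.06. Between the SCI groups these 4 relatives differed by log2 values of -0.30 to 0.22. Fhl1 (1.34 ± 0.31 SE, adjusted p = 0.00164) and Fhl2 (3.24 ± 0.90, adjusted p = 0.00676) rose after injury in edgeR, and their differences between SCI groups were 0.20 and 0.37. Fhl4 and Fhl5 were below 1.2 CPM on average in every group. Uaca, the paralog of Rai14, rose by 2.78 ± 0.59 (SE, edgeR adjusted p = 0.000991) and differed by 0.78 between the SCI groups (unadjusted p = 0.0179 in edgeR, not called). Palm, the founding paralemmin, fell by 0.54 ± 0.17 (SE, edgeR adjusted p = 0.0136) after injury. In the same test Palm2 rose by 0.69 ± 0.23 (adjusted p = 0.0234), and Palmd and Akap2 did not pass. Cemip, the other hyaluronan-degrading gene of the Tmem2 family, rose by 2.55 ± 0.96 (SE, edgeR adjusted p = 0.0375) after injury, and Pgbd1 had 0 control counts and 2.59 and 2.86 CPM in the SCI groups.

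Of 8 prenylation enzymes, which attach isoprenoids to proteins, 3 rose and 3 fell after injury by edgeR, against 29.0% and 16.4% of all genes. In edgeR Pggt1b rose by 1.72 ± 0.22 (SE, adjusted p = 7.31e-06). Fnta fell by 0.68 ± 0.14 (adjusted p = 0.000702) and Fntb by 0.87 ± 0.18 (adjusted p = 0.000717) in the same test.

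Of 19 actin, LIM and serum response factor genes 8 rose and 3 fell after injury by edgeR, against the same 29.0% and 16.4%, led by Tpm4 (1.99 ± 0.23 SE, adjusted p = 3.21e-06), Tln1 (1.45 ± 0.16, adjusted p = 1.65e-06) and Cnn2 with 0 control counts. Around Tmem2, 8 of 16 other tested genes of hyaluronan turnover rose and 1 fell against those shares, and 3 of the 8 had no reads in either control. The others included the hyaluronan receptor Cd44 (2.73 ± 0.18 SE, adjusted p = 4.20e-09) and the scavenger receptor Stab1 (4.81 ± 0.81, adjusted p = 0.000120), while the synthase Has1 was one with 0 control counts. Microglia or macrophage markers moved with these gene groups, at 188 to 231 CPM summed in controls and 1588 to 2570 CPM in the SCI mice, and their part in the values was not tested.

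Between the SCI groups these lists, members left out, held 0 called genes in edgeR. An unadjusted p under 0.05 was found for 0 of 8 prenylation enzymes, 3 of 19 actin, LIM and serum response factor genes and 2 of 16 hyaluronan genes, against 7.10% of all genes. The median log2 differences were -0.04, 0.12 and -0.01 in that order, against -0.003 over all genes.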

How the data were processed

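RNA-seq libraries were made from spinal cord of 16 mice with a stranded total RNA kit (SMARTer Pico). Per the labels and the study's methods, the authors trimmed reads with Trimmomatic 0.38, checked them with FastQC 0.12.1, aligned them to mm10 with STAR 2.5.4b and quantified genes with RSEM 1.3.1. They deposited a table of whole-number counts per gene, whose rounding step is not given in the sources used here, and a table of TPM values, which the authors scaled by gene length and library total. The members and lists were chosen with earlier results of these data known.

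Counts were normalized by TMM and tested with edgeR 4.0.16 (quasi-likelihood, R 4.3.3). Each SE from edgeR was worked back as the absolute log2 fold change over the square root of the F statistic. Genes needed a mean TPM above 1 in a group (16091 genes), and 144 of these had no counts, which left 15947. A gene was called at an adjusted p under 0.05, or an unadjusted p under 0.001 between SCI groups, with a fold change beyond 1.25. SCI mice were compared with controls in a fit of all 3 groups, and each pair of groups in a fit of those groups. Correlations used log2 CPM (prior count 2) with two-sided exact permutation over mice. Cell type scores were the mean log2 CPM of the markers, and lists with fewer than 3 tested genes (red blood cell) were left out. Named genes were the members, their paralogs, marker genes, the 3 with the smallest p among those called in each list, and the 3 most like each member. Alternatives used DESeq2 1.42.0, limma 3.58.1 and voom. Fits and correlations were tested on simulated data. Depth covers counting error only. Some genes and lists are not reported here.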

Additional observations from a re-analysis of the deposited data

How the results depend on the processing

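Comparisons with the controls rested on 2 libraries and depended most on how their spread was treated. In the comparison of SCI mice with controls, 7245 genes and 6 members were called, and here and below the members include Fhl3, which had no control reads. The count was 4589 genes when a mean TPM above 1 was required in every group, and 179 genes and 0 members with voom and group quality weights. Leaving out 1 mouse at a time gave 6952 to 9215 genes and 4 to 7 members. For SCI + Vehicle against controls, 4743 genes and 2 members became 2416 genes and 1 member with the stricter filter, which removes Fhl3, 140 genes and 0 members with voom, and 3858 to 7823 genes and 1 to 6 members when 1 mouse was left out. For SCI + Atorvastatin against controls, 6272 genes and 4 members became 3713 genes with the stricter filter, 170 genes and 0 members with voom, and 5604 to 9835 genes and 4 to 7 members when 1 mouse was left out. Where 1 control was left out, the lone control is assumed to vary like the other groups. The member counts with vehicle and with atorvastatin use groups the genes were chosen on, so their difference follows in part from that choice.

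Reversed values were found only for Pear1, 1500015O10Rik and Pgbd5. In SCI mice against controls, leaving out 1 mouse moved Pear1 between -0.91 and 1.21, Pgbd5 between -1.34 and 0.58 and 1500015O10Rik between -0.92 and 10.36, and Pear1 lay at 0.16 with voom. With vehicle these ranges were -1.36 to 0.76, -1.17 to 0.75 and -1.51 to 9.76. 1500015O10Rik there lay at 1.37 with limma on log2(TPM + 1) and at 3.23 with voom, and Pgbd5 at 0.019 with limma. With atorvastatin the ranges were -0.47 to 1.66 for Pear1, -1.52 to 0.40 for Pgbd5 and -0.35 to 10.95 for 1500015O10Rik, and Pear1 lay at -0.16 with limma. The ends of these ranges came from leaving out control 1 or control 2, and the high values of 1500015O10Rik are fitted against a control with no reads, so they measure no size. For the other settings the cause was not tested.

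Between the SCI groups, the 17 genes past the unadjusted limit became 37 with DESeq2, 11 with voom, 1 with all 3 groups in a fit, 3 without vehicle mice 4 and 7 together (chosen after seeing the data), and 5 to 32 when 1 mouse was left out. Relations with Dcn and Col3a1 past the adjusted limit stayed at 0 on every scale tried, by Spearman rho and without any mouse. Those with cell type scores went from 1 to 0 on log2(TPM + 1), to 2 by Spearman rho, and ranged from 0 to 1 when a mouse was left out, where the smallest p that 6 mice can give does not pass the adjustment.

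Replicate numbers did not pair the mice, as correlations of deviations between same-numbered SCI mice ran from -0.15 to 0.09. With the replicate number as a block, 3 members were called in SCI mice against controls, 17 genes and 0 members with vehicle, 0 genes and 0 members with atorvastatin, and 8 genes between the SCI groups. In the block fit with vehicle, Pear1 lay at 0.01 (0.0075 before rounding) and 1500015O10Rik at 3.19.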
